A study of Mus musculus with 6 samples.

Results

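Epididymal white adipose tissue, a visceral fat depot of male mice beside the epididymis, was described here from its control state: 3 control libraries out of the 6 RNA-seq libraries of the series. The 3 were chosen by their label, the treatment value ctrl, and come from mouse 5, mouse 6 and mouse 10; the other 3 libraries, from mice kept in the cold, were not used. All control mice were male, wild type, of strain C57BL/6N and 20 weeks old, and the labels give no genotype, allele or agent beyond this. Colony housing was at 22 to 24 °C with a 12 h light cycle and free food and water. The treatment text, worded alike for all 6 libraries, gives single housing for 24 h at 4 °C, and the series' design text ties that to 3 mice. Whether the control mice were housed singly, and at which temperature during those 24 h, is not stated by the labels. Each library holds RNA from the whole frozen fat pad of 1 animal, so every cell type of the pad contributes to it.

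White fat stores triglyceride in large single droplets. Adipocytes take up fatty acids that lipoprotein lipase frees from circulating lipoproteins, bind them with fatty acid binding proteins, esterify them, coat the droplet with perilipins and CIDE proteins, and release them again through the lipases ATGL (Pnpla2) and HSL (Lipe). They also secrete hormones, among them adiponectin, leptin, adipsin and resistin. Around them lie capillaries, fibroblast-like adipose progenitors and resident macrophages, and a mesothelium covers the surface of the pad. In these bulk samples fewer cells of a type and less RNA per cell cannot be told apart.

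The libraries were strand-specific and paired-end, with reads of 50 nt from polyadenylated RNA, and held between 19735167 and 24176464 estimated counts each. Reads were shared among 140658 transcripts by Salmon, a tool that estimates transcript abundance without aligning to the genome, and TPM (transcripts scaled to a fixed total per library) scales each estimate for length and depth. In every library 14252 of 54356 genes reached 1 TPM, 12328 of them protein-coding, and 94 genes reached 1000 TPM. Counts of any 2 libraries differed by more than counting error, with a chi-square per degree of freedom from 11.1 to 20.7, so the 3 were treated as separate samples. With 1 group of 3 mice no test between groups was made, and every value below is a description; triplets of values are in the order mouse 5, mouse 6, mouse 10.

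The labelled tissue was checked against 6 markers. Adipoq (adiponectin), made by adipocytes, stood at 3391, 2924 and 3319 TPM, and Scd1 (stearoyl-CoA desaturase, which makes oleate) at 8685, 10786 and 7323 TPM. Pecam1 of endothelium was at 139, 131 and 124 TPM. The progenitor receptor Pdgfra was at 9.97, 5.86 and 10.3 TPM, the macrophage gene Adgre1 (F4/80) at 19.6, 19.8 and 18.0 TPM, and Msln (mesothelin) of the mesothelium at 38.3, 21.7 and 49.3 TPM. All 6 were thus present in every library, with the adipocyte genes far above the others. Among 8 genes of brown and beige fat, summing to 68.3, 77.5 and 57.5 TPM, the defining Ucp1 (uncoupling protein) had 10, 0 and 0 counts and Elovl3 had 0, 2 and 0 counts. Most of that sum was Cox8b, a respiratory chain subunit, at 46.2, 54.2 and 36.9 TPM.

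A few genes held much of the RNA. The 10 most abundant genes made up 15.7 ± 0.702% of TPM (SD, n = 3) and the 100 most abundant 38.1 ± 0.870%. Among nuclear protein-coding genes the order opened with Fabp4, the adipocyte fatty acid binding protein (chr3:10204088-10208576 on GRCm38), at 22581, 25855 and 25868 TPM. Cfd, adipsin, a serine protease of the alternative complement pathway (chr10:79890853-79892655), followed at 18574, 19770 and 17050 TPM. Car3, a carbonic anhydrase abundant in fat and muscle (chr3:14863512-14872523), followed Cfd at 15746, 16509 and 15996 TPM. These 3 kept apart from all other nuclear coding genes in each library, since Scd1, next in order, did not pass 10786 TPM. The lowest value of Fabp4 was above the highest of Cfd, and the lowest of Cfd above the highest of Car3, so their ranges did not overlap.

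Below them the levels fell steeply and then flattened. Apoe, the lipoprotein ligand, was at 7670, 8444 and 6523 TPM, and Gsn, the actin-severing gelsolin, at 6714, 5821 and 6874 TPM. From Dbi, the acyl-CoA binding protein at 3915 ± 129 TPM, to Slc1a5, a neutral amino acid transporter at rank 25 and 2465 ± 115 TPM, the ranges of genes next to each other overlapped, so neighbours did not differ beyond their spread. This stretch held Lpl (3693 ± 212 TPM), the droplet protein Cidec (3641 ± 406), the ferritin chains Ftl1 (3703 ± 207) and Fth1 (3404 ± 88.3), the acute-phase protein Hp (3048 ± 403), transferrin Trf (2812 ± 89.6), the matrix protein Sparc (2720 ± 131), perilipin Plin1 (2673 ± 89.0) and resistin Retn (2519 ± 255). Nnat, an imprinted gene for a small membrane proteolipid, varied more than most of them, at 3496, 2419 and 3927 TPM. Cyp2e1, a cytochrome P450, was highest in mouse 6, at 2272, 3499 and 1990 TPM.

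**Figure D1:**
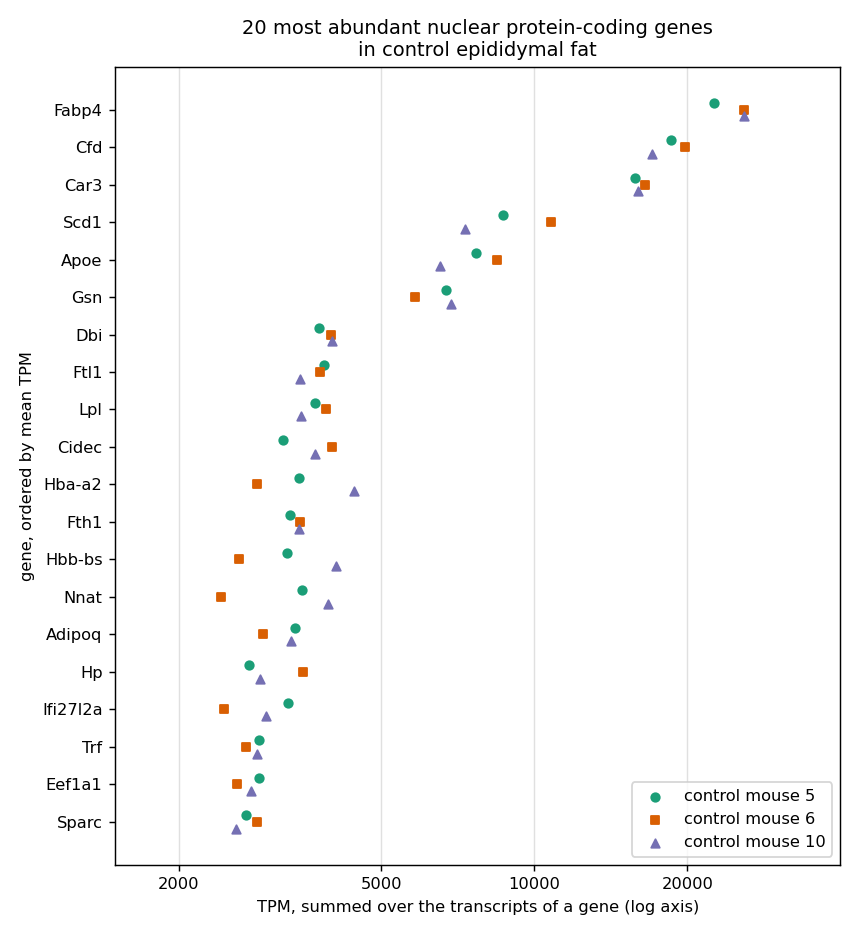
TPM (log axis) of the 20 most abundant nuclear protein-coding genes, ordered by mean, with 1 point per control mouse. Fabp4, Cfd and Car3 lie to the right of all other genes in each mouse, while from Dbi downward the points of neighbouring genes overlap.

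The order depended on whether length was scaled out. By estimated counts, which favour long transcripts, Scd1 led with 633032, 758699 and 442654 counts, and Cfd ranked 6 among nuclear coding genes. The 10 leading genes by counts held 11.2 ± 0.638% of counts. Mitochondrially encoded genes showed the same contrast, with 14.7 ± 0.780% of TPM. Their 13 protein-coding genes, subunits of the respiratory chain and ATP synthase, held 12.0 ± 0.728% of TPM but 3.96 ± 0.171% of counts. First place over all genes went to mt-Atp8, a subunit of ATP synthase, at 23850, 28111 and 31330 TPM, although it ranked 153 by counts with 13770, 14728 and 13634. Its transcript of 204 nt has an effective length of 34 nt in the file of mouse 5, the number of start positions Salmon counts as usable. As estimated, mt-Atp6 (13586 ± 474 TPM), mt-Co2 (13556 ± 331) and mt-Co1 (12799 ± 970) came next among the mitochondrial coding genes, and mt-Nd3 (1002 ± 31.1) was last. The places of mt-Co1 and mt-Nd3 in this order are uncertain, because abundant pseudogenes, given below, share most of their sequence with these genes. All 13 stayed within a ratio of 1.31 between the highest and the lowest library.

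Short features were also prominent among genes that do not code for protein. The mitochondrial tRNAs mt-Ts1 and mt-Te reached 10315 ± 98.3 and 9514 ± 961 TPM on at most 1906 and 1717 counts in a library, and Gm24245, annotated as a miRNA of 57 nt, reached 3142 ± 66.3 TPM on 317, 304 and 271 counts. Genes with no transcript of 200 nt or more held 4.70% of TPM and 0.0415% of counts. The pseudogenes Gm29216 (5901 ± 735 TPM) and Gm28438 (2427 ± 77.5 TPM) on chromosome 1 are uncertain. Of the 25-base words of the first 97.2% occur in mt-Co1, and of those of the second 99.1% occur in mt-Nd3. Most of their reads therefore cannot be told from those of mt-Co1 and mt-Nd3, whose levels are uncertain too. Neat1, a long nuclear RNA of paraspeckles named after its values were seen, reached 2467, 2497 and 1941 TPM on 83104 to 128097 counts.

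Genes of fat uptake were led by Fabp4. The 9 genes of fatty acid uptake and activation summed to 29738, 33867 and 33316 TPM, of which Fabp4 gave most. Lpl, the lipase on the capillary wall, was at 3702, 3901 and 3476 TPM, and its endothelial anchor Gpihbp1 at 350, 385 and 318 TPM. The fatty acid translocase Cd36 was at 1831, 2267 and 2162 TPM, lowest in mouse 5. Slc27a1, a transporter that activates fatty acids, was at 618 ± 61.6 TPM and the acyl-CoA synthetase Acsl1 at 534 ± 61.5 TPM. Every one of the 9 genes passed 1 TPM in each library.

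Synthesis genes were led by the desaturase. The 14 genes summed to 12475, 14125 and 10057 TPM, and 9 of them were lowest in mouse 10. Over all 14708 genes with a mean of at least 1 TPM and 10 counts, mouse 5, mouse 6 and mouse 10 were lowest in 23.0, 41.7 and 35.3% and highest in 37.0, 29.7 and 33.4%, and counts of members lowest or highest in a mouse are to be read against these shares. Fasn, fatty acid synthase, was at 1590, 1395 and 901 TPM, a ratio of 1.76 between the highest and lowest library. Thrsp (Spot 14), a lipogenic regulator, was at 879, 787 and 727 TPM, and Me1, which supplies NADPH, at 274, 248 and 197 TPM. Acly, which makes cytosolic acetyl-CoA, was at 176, 137 and 137 TPM, and Acaca, acetyl-CoA carboxylase, at 81.9, 56.2 and 62.9 TPM. The elongase Elovl6 was low, at 9.38, 4.76 and 6.20 TPM.

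In triglyceride assembly, Dgat2, which adds the last acyl chain, was at 2239, 2128 and 1713 TPM, against 372, 447 and 412 TPM for its partner enzyme Dgat1, so Dgat2 was the higher of the pair in each mouse. Pck1, which feeds glycerol 3-phosphate synthesis, was at 1659, 1343 and 1881 TPM, and glycerol kinase Gk, another route to glycerol 3-phosphate, at 5.43, 3.78 and 3.17 TPM. The summed level of the 10 genes differed by a ratio of 1.08 between libraries, while single members differed by more, Pck1 by 1.40 and Gk by 1.71. The first acylation step showed Gpam at 71.4, 62.0 and 91.3 TPM, and the second step Agpat2, whose loss causes lipodystrophy, at 619, 776 and 525 TPM.

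Droplet coat genes were dominated by Cidec and Plin1, which restrain lipolysis and enlarge droplets. Plin1 was at 2576, 2691 and 2751 TPM. Plin4 followed at 801, 998 and 802 TPM, while Plin2, common in other tissues, was at 291, 339 and 327 TPM and Plin5, typical of oxidative tissue, at 10.97, 11.53 and 8.27 TPM. Cidea, more usual in brown fat, was at 4.92, 3.61 and 2.70 TPM. The lipolysis genes summed to 6177, 6393 and 6849 TPM. Lipe was at 1787 ± 49.0 TPM, the monoglyceride lipase Mgll at 863 ± 99.3 TPM, and the ATGL inhibitor G0s2 (638 ± 59.1 TPM) was above the ATGL activator Abhd5 (102 ± 9.83 TPM) in each mouse. The beta3-adrenergic receptor Adrb3, which triggers lipolysis, was at 925, 726 and 1118 TPM, lowest in mouse 6.

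Secreted hormones ranged over several orders. After Cfd, Adipoq and Retn came Rbp4, a retinol carrier, at 738, 704 and 809 TPM and Lep (leptin), the satiety hormone, at 617, 630 and 528 TPM. Agt (angiotensinogen) was at 231 ± 16.8 TPM and Angptl4, an inhibitor of lipoprotein lipase, at 227 ± 34.1 TPM. Serpina12 (vaspin) had 0, 0 and 3 counts. The 13 other genes of this list passed 1 TPM in each library, and their sum differed by a ratio of 1.11 between libraries.

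Transcription factors of the adipocyte were led by Cebpa. It stood at 718, 756 and 811 TPM, above Srebf1 (351, 313 and 343 TPM) and Pparg (215, 192 and 217 TPM), the nuclear receptor that directs fat cell formation. Rxra, the partner of PPARG, was at 118 ± 4.65 TPM and Nr1h3 (LXRA) at 82.5 ± 2.92 TPM. Cebpd had the widest ratio of the 12 genes, 2.12, at 25.3, 13.5 and 11.9 TPM.

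Genes of antigen presentation and complement were abundant as well. B2m, the light chain of MHC class I, was at 2377, 2167 and 2444 TPM. H2-K1 and H2-D1, class I heavy chains so alike that their reads can be shared wrongly, were at 1495 ± 39.3 and 1300 ± 48.2 TPM. Class II genes lay lower, with Cd74, the invariant chain, at 714 ± 59.1 TPM and H2-Ab1 at 382 ± 26.8 TPM. In the complement list Cfd outweighed all others; C3, on which the pathways converge, was at 327, 205 and 309 TPM and C4b at 374, 380 and 405 TPM. C3, C1s1 (221, 146 and 228 TPM) and Serping1 (217, 147 and 221 TPM) were each lowest in mouse 6.

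Resident cell types were read from 24 marker lists, each summed in TPM; 7 of them ranged 2-fold or more between libraries, and all 7 but the mesothelial list summed to under 20 TPM in mouse 5 and mouse 6. The 13 adipocyte genes summed to 67426, 75006 and 68947 TPM, or 7.05% of all TPM. Blood endothelium had the narrowest range of the 24 lists: its 12 genes summed to 1271, 1286 and 1284 TPM, with Cdh5 at 152 ± 2.89 TPM and Cldn5 at 155 ± 2.64 TPM, both proteins of endothelial junctions. Pericyte and smooth muscle genes summed to 689, 722 and 704 TPM, led by Rgs5 at 193 ± 22.6 TPM. The sums of these lists differed by ratios of 1.01 to 1.11 between the 3 mice. Single members differed by more, with the widest ratio at 1.54 for Adrb3 of adipocytes, 1.40 for Vwf of endothelium and 4.84 for Cnn1 of smooth muscle.

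Macrophage genes summed to 1436, 1226 and 1211 TPM, highest in mouse 5. Lyz2 (lysozyme) was at 593, 509 and 473 TPM, C1qa at 215, 170 and 202 TPM and the growth factor receptor Csf1r at 66.4, 59.9 and 57.5 TPM. The scavenger receptor Cd163 of tissue-resident macrophages was lowest in mouse 6, at 28.0, 16.5 and 21.5 TPM, while Trem2 of lipid-handling macrophages was highest there, at 19.5, 25.1 and 14.6 TPM. Genes outside the list, named after their values were seen, stood further apart in mouse 6: Gpnmb, a glycoprotein of lipid-laden macrophages, was at 14.1, 51.6 and 14.3 TPM, the elastase Mmp12 at 17.3, 54.3 and 23.1 TPM, and the proton pump subunit Atp6v0d2 at 2.34, 7.01 and 2.62 TPM. The ratio of highest to lowest was 3.65 for Gpnmb and 3.14 for Mmp12, while Adgre1, given above, lay close together in all mice. The chemokines did not share 1 order: Ccl8 was highest in mouse 6 (17.8, 55.2 and 17.7 TPM), while Ccl2 (17.5, 8.82 and 29.8 TPM), Ccl7 (8.51, 7.48 and 24.95 TPM) and Ccl11 (73.3, 31.1 and 97.1 TPM) were lowest there.

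Most progenitor and fibroblast genes were lower in mouse 6. The sum of their list was 2114, 1548 and 2028 TPM, and 10 of 12 genes were lowest in that mouse, which was lowest in 41.7% of all genes. The exceptions were F3, highest in mouse 6 at 87.7, 103 and 83.6 TPM, and Lum, at 44.3, 30.1 and 29.5 TPM. Dcn (decorin) was at 869, 579 and 767 TPM and Col3a1 at 501, 373 and 535 TPM. Pi16 and Dpp4, which mark interstitial progenitors, were at 39.0, 17.1 and 33.3 TPM and at 9.87, 3.86 and 11.9 TPM. The mesothelial list differed more, with 257, 108 and 257 TPM, and all 10 genes were lowest in mouse 6, against the same 41.7% of all genes. Upk3b (uroplakin 3B) was at 56.0, 21.9 and 56.0 TPM, the keratin Krt19 at 27.4, 9.21 and 24.7 TPM and Wt1 at 12.8, 7.82 and 13.5 TPM. Mouse 5 and mouse 10 were alike in this sum, and mouse 6 was below them by a ratio of 2.39 to the highest. The lymphatic sum was 137, 95.3 and 133 TPM, with the hyaluronan receptor Lyve1 at 23.0, 8.78 and 18.7 TPM and the defining factor Prox1 at 0.255, 0.256 and 0.479 TPM; Ccl21a, the largest part of that sum, has near-identical copies and is uncertain.

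Red cell genes had the highest sum of the 24 lists after adipocytes, at 8124, 6674 and 10460 TPM. All 5, globins that share reads between near-identical copies and the heme enzyme Alas2, were highest in mouse 10 and lowest in mouse 6. Ighm, the IgM heavy chain, was at 622, 498 and 457 TPM, while the 5 other B cell genes had means from 0.572 to 3.59 TPM. The plasma cell gene Jchain fell outside that list and was at 41.6, 16.2 and 8.19 TPM. T cell genes summed to 14.4, 12.4 and 11.8 TPM and NK cell genes to 9.01, 10.8 and 8.61 TPM, with Trac at 45, 31 and 20 counts. All 6 mast cell genes were highest in mouse 5, as were 37.0% of all genes; the tryptase Tpsb2 was there at 22.0 TPM against 10.5 and 13.04 TPM. The neutrophil gene S100a8 had 9, 61 and 6 counts, highest in mouse 6. Other genes of that list did not follow it: S100a9 had 2, 4 and 4 counts, Cxcr2 had 22.0, 21.9 and 9.29, and Retnlg had 0, 5 and 5. Neutrophil genes Ly6g and Ngp, and the eosinophil gene Epx, had 0 counts in all libraries, a floor of up to 3 counts in each.

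**Figure D2:**
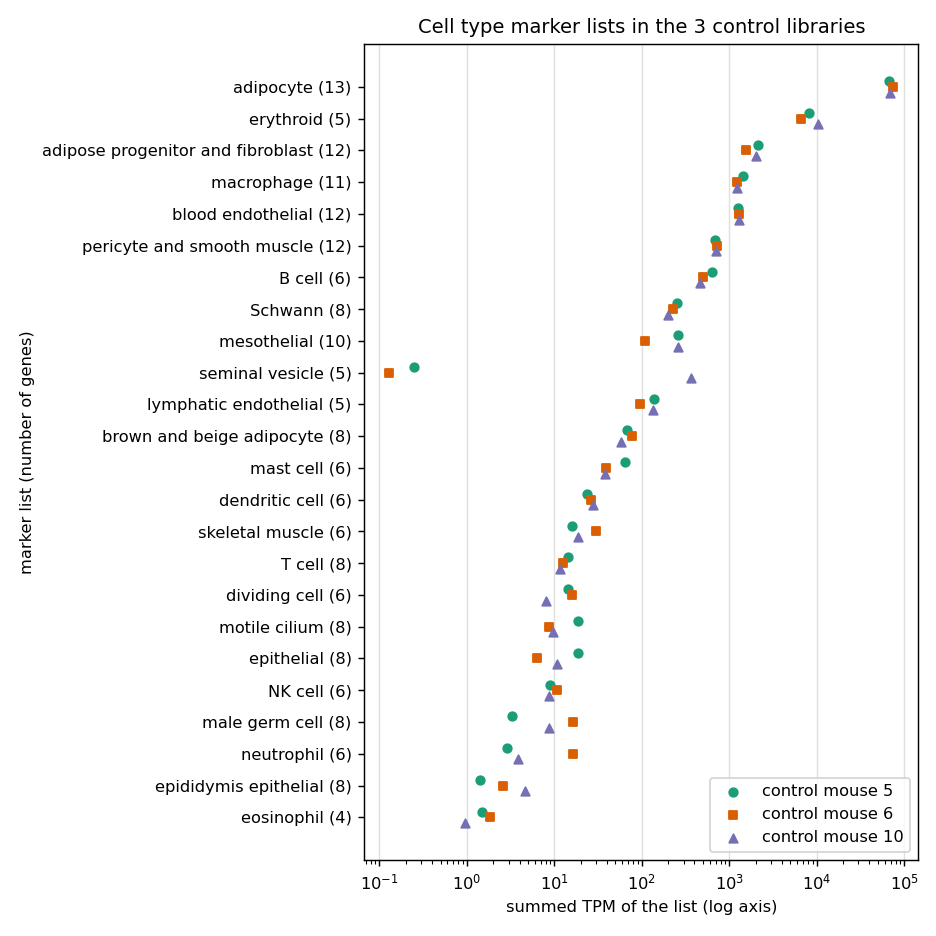
Summed TPM (log axis) of 24 cell type marker lists, ordered by mean, with 1 point per control mouse and the number of genes in brackets. Sums of the blood endothelial genes coincide at 1271 to 1286 TPM, the mesothelial sum is lower in mouse 6 at 108 TPM, and the seminal vesicle sum reaches 368 TPM in mouse 10 alone.

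Each library also held traces of genes from outside fat, and the traces differed. Mouse 10 carried seminal vesicle genes. Svs5, a secretory protein of that gland, had 2, 1 and 1255 counts, Svs4 had 0, 0 and 696 counts, and Svs2, the main protein of the copulatory plug, had 0, 0 and 802 counts. With the floor set at 3 counts per library, Svs2 was at least 328-fold higher in mouse 10 than in mouse 5, Svs4 at least 284-fold, and Svs6, with 169 counts, at least 69.1-fold. Pate4, a further gene of the list, had 0, 0 and 132 counts. The list of 5 genes summed to 0.251, 0.130 and 368 TPM. The 4 Svs genes lie close together on chromosome 2, from Svs2 at chr2:164235929-164238466 to Svs5 at chr2:164332740-164334396.

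Mouse 5 carried genes of ciliated epithelium. Foxj1, the factor that directs motile cilia, had 248, 22 and 1 counts, and 7 of the 8 genes in that list were highest in mouse 5, against 37.0% of all genes. The exception was the most abundant gene of the list, Cfap126, at 6.09, 5.36 and 7.65 TPM. The dynein heavy chains Dnah9 and Dnah5 had 35, 5 and 2 counts and 66, 3 and 0 counts. Among epithelial genes Epcam had 137, 19 and 7 counts and Cdh1 (E-cadherin) had 40, 7 and 5 counts, 7 of 8 again highest in mouse 5. The most abundant gene of that list, Krt7, was again the exception, at 5.78, 3.05 and 7.21 TPM. Several members of both lists had means under 1 TPM, below the genes over which the share of 37.0% was taken. Genes of epididymal epithelium had few counts: Crisp4 had 0 counts in every library, Lcn5 had 0, 0 and 1, and Adam7 had 11, 0 and 0. Rnase10 was read in each mouse, with 15, 8 and 2 counts, as was Spink8, the leading member by TPM, with 1, 4 and 2 counts.

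Traces of sperm and muscle genes were mostly highest in mouse 6. The protamines, which pack sperm DNA, gave 1, 22 and 5 counts for Prm1 and 0, 27 and 11 counts for Prm2, and 6 of 8 germ cell genes were highest in mouse 6, against 29.7% of all genes. Several of the 8 had means under 1 TPM, below the genes over which that share was taken. The exceptions, Tnp2 with 0, 6 and 7 counts and Ddx4 with 4, 6 and 7 counts, were highest in mouse 10. The most abundant of the 8, Sycp3, differed little between mice, at 3.02, 4.48 and 3.76 TPM. Odf1 of the sperm tail had 0, 13 and 2 counts. Skeletal muscle genes were highest in mouse 6 for 5 of 6 genes, against the same 29.7% of all genes. Among these, Ckm and Myh4 had means under 1 TPM, below the genes over which that share was taken. The exception was the most abundant of the 6, Acta1 (skeletal alpha-actin), at 9.36, 15.3 and 15.6 TPM. Ckm, muscle creatine kinase, had 4, 31 and 2 counts, Tnnt3, fast troponin T, had 8, 37 and 3, and the fast myosin Myh4 had 0, 37.6 and 0. These counts are small beside a library of 22969181 counts, and where the RNA came from was not tested.

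**Figure D3:**
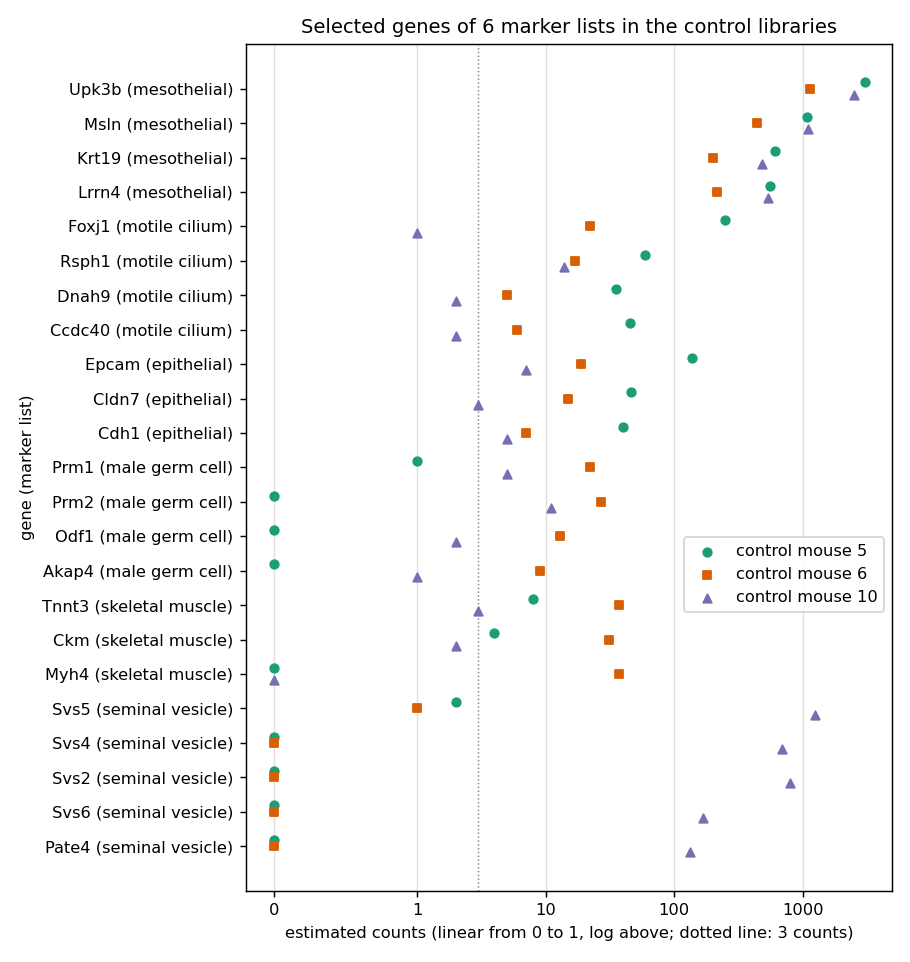
Estimated counts (linear from 0 to 1, log axis above) of 23 genes from 6 marker lists, with 1 point per control mouse and a dotted line at 3 counts. Seminal vesicle genes are high in mouse 10 and at 2 or fewer counts in mouse 5 and mouse 6, the cilium and epithelial genes plotted are highest in mouse 5, the germ cell and muscle genes plotted in mouse 6, and the mesothelial genes are lowest in mouse 6.

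The upstream sequences of Svs5 and Svs6 are shown because these neighbouring genes were read together in 1 library and have upstream sequences in common. Each run holds the 250 bases before the gene's start in RefSeq (GRCm38.p6), on the plus strand, at chr2:164332515-164332764 and chr2:164316501-164316750, with TATAAA in capitals; the last 25 bases of the Svs5 run lie within its GENCODE transcript.
Svs5: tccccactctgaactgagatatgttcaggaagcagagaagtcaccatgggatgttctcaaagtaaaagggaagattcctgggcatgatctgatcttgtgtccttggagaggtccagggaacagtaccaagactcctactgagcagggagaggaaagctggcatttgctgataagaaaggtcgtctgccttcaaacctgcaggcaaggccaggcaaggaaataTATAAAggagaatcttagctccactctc
Svs6: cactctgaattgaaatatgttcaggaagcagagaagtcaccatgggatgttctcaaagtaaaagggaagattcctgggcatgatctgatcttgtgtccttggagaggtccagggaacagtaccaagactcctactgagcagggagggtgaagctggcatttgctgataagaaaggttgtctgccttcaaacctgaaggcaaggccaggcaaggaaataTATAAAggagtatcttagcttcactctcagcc
The longest run the windows share is 131 bases, and shared runs of 10 bases or more cover 208 bases. TATAAA begins 28 bases before the start of Svs5 and 32 bases before that of Svs6. On either strand it occurs in 12.37% of all 32851 promoter windows of this length and in the windows of Svs2 and Svs4 too, 4 of the 4 Svs genes. The match nearest the RefSeq start begins 28 bases before it in Svs4 and 205 bases before it in Svs2. However, the last 152 bases of the Svs4 window and the last 125 of the Svs2 window lie within their GENCODE transcripts. That Svs4 match thus falls inside its GENCODE transcript, and the distances depend on which start is used. Whether reads of the Svs genes could be shared between them was not tested.

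Most genes were read mainly as 1 transcript, though often not by a wide margin. Over 9736 genes with a mean of at least 5 TPM and 2 or more annotated transcripts, the leading transcript held a median of 69.4% of the gene's TPM. It held 90% or more in 2412 genes (24.8%) and less than 50% in 2389 genes (24.5%). The same transcript led in all 3 libraries for 8418 genes (86.5%). Where the leader changed, in 1318 genes, its median share was 39.4%, against 74.9% where it stayed.

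Several adipocyte genes were close to a single form. Scd1-201 held 99.9%, Lep-201 99.7%, Fabp4-201 98.9% and Adipoq-201 98.5% of their genes' TPM. Cd36 was spread over 5 transcripts that differ outside the coding part: together they encode the same 472 codons and held 96.5 ± 0.369%. Lpin1, a phosphatidate phosphatase, was read as its 924-codon form at 95.04, 97.7 and 95.2%, and the 891-codon form held 3.84, 2.07 and 4.61%.

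Pparg was split between its forms in a constant ratio. Pparg2, the form of 505 codons that is typical of adipocytes (Pparg-201), held 52.5, 53.5 and 53.0% of the gene's TPM. Pparg1, of 475 codons and found in many tissues, held 46.1, 44.7 and 46.2% over Pparg-204 and Pparg-202. The form of 505 codons was thus slightly ahead in each mouse, and the SD of its share was 0.486 percentage points. The forms start at different promoters, and the upstream bases of the 2 starts with most TPM are shown to let them be compared. The first run is chr6:115362099-115362291, the bases before the start of Pparg-204 in a window of 250 bases that ends at the RefSeq start, and the second is chr6:115421816-115422065, the 250 bases before the start of Pparg-201, both on the plus strand of GRCm38.p6 from RefSeq. Capitals mark GGGCGG and CCAAT on either strand.
Pparg1 upstream: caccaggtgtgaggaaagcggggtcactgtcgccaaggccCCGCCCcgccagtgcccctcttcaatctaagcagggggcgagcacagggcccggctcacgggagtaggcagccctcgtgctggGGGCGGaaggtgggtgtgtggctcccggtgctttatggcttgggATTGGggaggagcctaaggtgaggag
Pparg2 upstream: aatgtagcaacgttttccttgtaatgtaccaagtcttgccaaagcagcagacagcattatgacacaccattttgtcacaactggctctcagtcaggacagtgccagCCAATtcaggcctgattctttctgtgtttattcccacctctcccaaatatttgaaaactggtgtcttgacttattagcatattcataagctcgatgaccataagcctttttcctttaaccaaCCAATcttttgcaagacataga
The whole window of Pparg1 has 63.6% G and C, 12 CG steps, 2 matches to GGGCGG and 1 to CCAAT, and, beyond the bases printed, a TATAAA 29 bases before the RefSeq start. That of Pparg2 has 40.8% G and C, 2 CG steps, 2 matches to CCAAT and none to the other motifs. GGGCGG occurs in 32.74% and CCAAT in 33.85% of all windows of that length, where the median is 6 CG steps.

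Pkm, pyruvate kinase, makes an M2 form (Pkm-201) and an M1 form (Pkm-202) by choosing 1 of a pair of exons. The M2 form held 78.8, 80.8 and 77.5% of the gene's TPM and the M1 form 20.4, 18.7 and 22.2%. M2 led in each mouse, with an SD of 1.68 percentage points. The exons are shown because the choice between them names the forms; each is exon 9 of its transcript and has 167 bases, at chr9:59675568-59675734 for M2 and chr9:59675029-59675195 for M1, on the plus strand of GRCm38.
M2 exon: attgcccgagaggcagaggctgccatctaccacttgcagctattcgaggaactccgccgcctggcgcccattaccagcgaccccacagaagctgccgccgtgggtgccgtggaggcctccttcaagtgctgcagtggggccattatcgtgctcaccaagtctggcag
M1 exon: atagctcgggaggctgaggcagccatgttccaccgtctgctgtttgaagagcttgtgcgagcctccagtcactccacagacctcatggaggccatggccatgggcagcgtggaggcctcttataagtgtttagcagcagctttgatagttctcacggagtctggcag
At 103 of 167 positions, 61.68%, the exons hold the same base. Both forms have 531 codons.

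Cfd, second among nuclear coding genes, was divided by a shift of 3 bases at the start of its exon 2. The form of 259 codons (Cfd-201) held 60.4, 59.1 and 57.8% and the form of 258 codons (Cfd-202) 39.6, 40.9 and 42.2%. Exon 2 begins at chr10:79891456 in the first and at chr10:79891459 in the second. The junction is shown with 24 bases of exon 1, 24 bases of the shared part of exon 2 and, in capitals, the bases kept only in Cfd-201.
Cfd-201: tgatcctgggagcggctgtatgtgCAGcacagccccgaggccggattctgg
Cfd-202: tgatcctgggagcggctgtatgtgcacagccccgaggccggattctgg
The transcripts also differ at their 3′ ends, at chr10:79892655 and chr10:79892607, so the shares rest on both differences.

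Lmna and Gnas gave further known pairs. Lmna-203, of 574 codons (lamin C), held 57.6, 63.3 and 61.3%, and Lmna-201, of 665 codons (prelamin A), 36.0, 33.0 and 35.1%. For Gnas, the stimulatory G protein that links Adrb3 to cyclic AMP, forms of 394 codons held 64.7, 67.9 and 61.5% and those of 380 and 379 codons 20.8 ± 1.51% and 12.7 ± 1.47%. Cd44, a hyaluronan receptor, varied more: Cd44-207 held 78.6, 69.1 and 67.2%. The lipase gene Lipe was read mainly as 759 codons, at 78.4 ± 2.22%.

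In some genes the leading transcript was not annotated as coding. Of 9431 protein-coding genes, the leader was protein_coding in 8475 (89.9%), retained_intron in 431, processed_transcript in 288 and nonsense_mediated_decay in 234. Ranked by estimated counts, 94.5% had a coding leader, and 494 of the 956 genes with a non-coding leader by TPM had a coding one by counts. Non-coding leaders had a median length of 1290 nt, against 2641 nt for coding ones. Ctsb, the lysosomal protease cathepsin B, is such a gene: Ctsb-202, a retained-intron transcript of 801 nt, held 52.8 ± 0.344% of TPM but 13.3 ± 0.167% of counts, and the coding Ctsb-201 of 4743 nt held 86.7 ± 0.169% of counts. For Fasn, the coding Fasn-205 held 39.4, 29.9 and 45.5% of TPM but 75.5 ± 3.35% of counts. In mouse 6 a retained-intron fragment of 762 nt, Fasn-202, led by TPM at 35.3%.

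Pnpla2 (ATGL), which starts triglyceride breakdown, was led by Pnpla2-201, annotated for nonsense-mediated decay, with 51.6, 52.3 and 52.6% of TPM and 59.6 ± 0.177% of counts. The form of 486 codons, Pnpla2-203, held 2.36, 2.49 and 3.17% of TPM, and Pnpla2-202, of 430 codons, 27.2, 28.1 and 28.9%. Pnpla2-201 shares 7 exons exactly with Pnpla2-203, adds an exon of 82 bases at chr7:141456568-141456649 and ends 651 bases earlier on the genome. Reads in the shared exons could come from either, and how the annotated ends affect their division was not tested. Pnpla2-203 and Pnpla2-202 end apart too, at chr7:141460743 and chr7:141460094, so their shares do not rest on a single exon. The coding exon of 168 bases that Pnpla2-203 has and Pnpla2-202 lacks, at chr7:141458592-141458759 on the plus strand, is shown as their coding difference.
Pnpla2 exon 6: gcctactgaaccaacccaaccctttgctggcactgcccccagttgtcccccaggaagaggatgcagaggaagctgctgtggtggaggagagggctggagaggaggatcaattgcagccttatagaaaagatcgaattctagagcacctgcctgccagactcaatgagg
Ppia, cyclophilin A, also had a non-coding leader by both measures, with the decay-annotated Ppia-201 at 90.01, 91.2 and 93.6% of TPM and 94.6 ± 0.637% of counts and the coding Ppia-202 at 0.687 ± 0.212% of TPM. In Clstn3 the leader changed with the measure: Clstn3-203, a processed transcript of 728 nt, held 82.5, 86.0 and 82.9% of TPM but 46.3 ± 3.56% of counts, where the coding Clstn3-202 held 53.3 ± 3.22%.

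**Figure D4:**
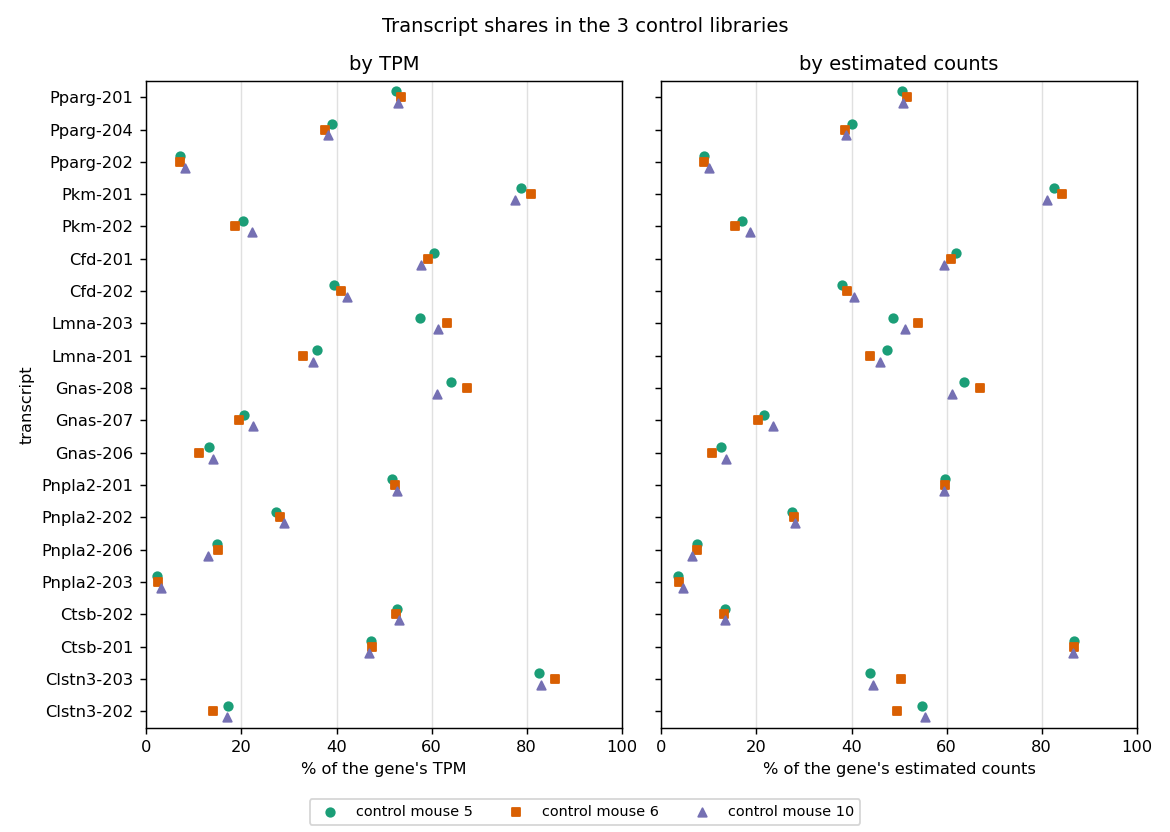
Share of a gene's TPM (left) and of its estimated counts (right) held by 20 transcripts of 8 genes, with 1 point per control mouse. Ctsb-202 moves from 52.8% of TPM to 13.3% of counts and Clstn3-203 from 83.8% to 46.3%, while Pparg-201 stays near 53.0% and 51.0%.

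Spread between the mice was small for abundant genes and grew at low levels. Over 14708 genes with a mean of at least 1 TPM and 10 counts, the median coefficient of variation (SD as a percent of the mean) was 20.4% from 1 to 5 TPM, 10.5% from 5 to 20 TPM, 7.39% from 20 to 100 TPM, 6.51% from 100 to 1000 TPM and 6.37% above 1000 TPM. Counting error alone, taken as 1 over the square root of the mean count, would give medians of 12.1% in the lowest class and 0.668% in the highest. The biological coefficient of variation that edgeR estimated over all filtered genes was 12.7%. It was 10.4% without mouse 6 and 14.2% without mouse 5.

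**Figure D5:**
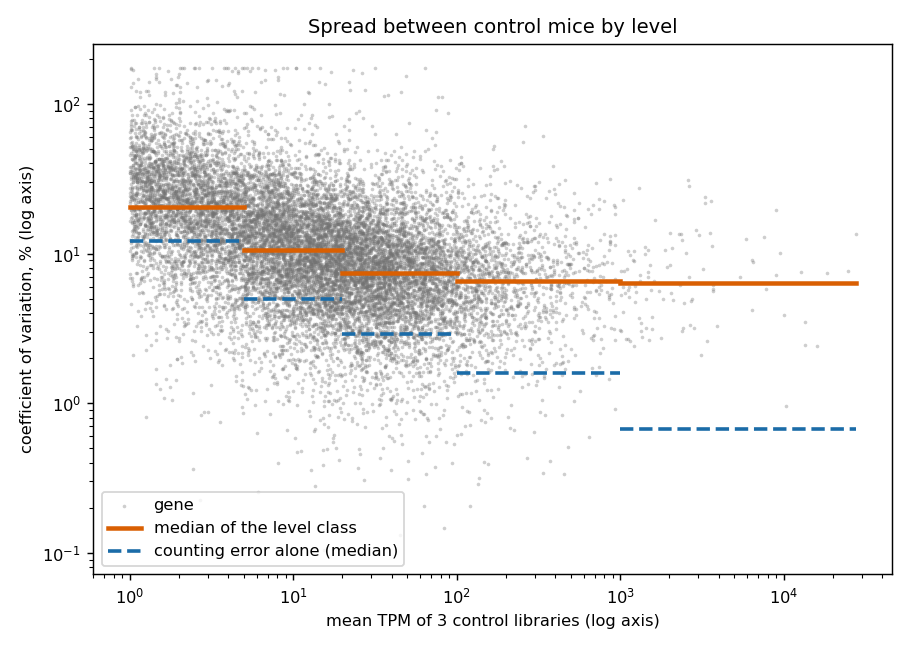
Coefficient of variation (%, log axis) against mean TPM (log axis) for 14708 genes over 3 control mice, with the median of each level class (solid) and the median that counting error alone would give (dashed). The solid line falls from 20.4% to 6.37% and the dashed line from 12.1% to 0.668%.

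Genes with a range of at least 2-fold between the highest and lowest mouse numbered 1161, or 7.89%, and 839 of them lay below 5 TPM. Without mouse 6 the number was 561, without mouse 5 it was 659 and without mouse 10 it was 667, over pairs of mice. Mouse 6 was the lowest library in 539 of the 1161 genes, or 46.4%, against 41.7% of all genes. Mouse 5 was the highest in 501, or 43.2%, against 37.0% of all genes. A level at least 2-fold below both other mice was seen for 231 genes in mouse 6, 171 in mouse 10 and 78 in mouse 5. No gene above 1000 TPM had a 2-fold range.

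Beyond the Svs genes, the widest ranges among protein-coding genes at 10 TPM or more were of varied function. Cish, a cytokine-induced inhibitor of STAT signalling, was at 34.9, 2.97 and 11.9 TPM, a ratio of 11.7. Socs2, a relative with the same kind of role, did not follow it, at 14.3, 20.0 and 16.1 TPM. Thbs1 (thrombospondin 1), a matrix protein also released by platelets, was at 18.3, 7.68 and 87.7 TPM, a ratio of 11.4. Hmcn2, an extracellular matrix protein, was at 17.7, 3.51 and 17.7 TPM, lowest in mouse 6, and the glutathione transferase Gstm7 was at 32.2, 7.70 and 9.77 TPM, highest in mouse 5. Lgals7 (galectin 7) was at 13.4, 4.59 and 24.0 TPM. Gm21541 had 439, 0 and 368 counts and Gm21887 106, 166 and 36.9; both may share reads with near-identical copies and are uncertain.

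A few more genes were picked singly after their values were seen, so they stand for no group, and a ratio of 1.5 or more was seen in 20.6% of all genes. Fkbp5, induced by glucocorticoids, was at 59.4, 97.4 and 35.5 TPM, highest in mouse 6, whereas Tsc22d3 (GILZ), induced by the same hormones, was at 224, 176 and 140 TPM, highest in mouse 5. The immediate early gene Fos was at 17.7, 4.92 and 12.9 TPM and the phosphatase Dusp1 at 105, 46.4 and 76.5 TPM, both lowest in mouse 6, as was Junb at 30.7, 19.8 and 31.7 TPM. Igf1 was at 103, 119 and 104 TPM. The clock gene Nr1d1 was at 155, 173 and 264 TPM and Per1 at 61.6, 59.6 and 37.2 TPM, so mouse 10 was highest for one and lowest for the other. The labels state no times of dissection.

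At the other end, 8 coding genes at 10 TPM or more had coefficients of variation of 0.309% or less. Chmp5, of the ESCRT machinery that sorts membrane proteins, was at 84.0, 84.3 and 84.1 TPM, and Ostf1 at 120, 121 and 120 TPM. Nxt1, an mRNA export factor, was at 15.4, 15.5 and 15.4 TPM. Counts of Nxt1 were 217, 208 and 178, so its coefficient of variation of 0.105% was below what counting error alone would give. The same held for Chmp5 (0.147% on 1568 to 1901 counts) and Ostf1 (0.206% on 1783 to 2178 counts). As the smallest values picked from many genes, they do not mark these genes as stable.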

How the data were processed

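For each library the authors deposited TPM and estimated counts by transcript. The tools (bcl2fastq, cutadapt, Salmon) and the build GRCm38 come from the submitters' processing notes; no versions or settings were found there. Transcripts were matched to GENCODE M21: 139921 of 140658 matched with version and length, 521 did not match and held 0.259 to 0.394% of counts. Both units were summed per gene (Python 3.11.15, pandas 2.3.3). Spread was taken over genes with a mean of 1 TPM and 10 counts; isoform shares over genes with a mean of 5 TPM. edgeR 4.0.16 (R 4.3.3) gave the biological coefficient of variation from rounded estimated counts; the steps were tested on simulated data. Depth of 19735167 to 24176464 counts limits low genes, and floors of 3 counts cover counting error only. Named were the 25 leading coding genes, the leading members of each list, the widest and narrowest ranges and known isoforms. Members and lists were chosen with earlier results of these data known, and other list members and genes were named after their values were seen. Other minimums, counts in place of TPM, other scalings and leaving out each mouse were tried. Not every list, list member or leading gene is reported here.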

Additional observations from a re-analysis of the deposited data

How the results depend on the processing

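No paired analysis was possible because only 1 group of samples was used. By estimated counts the 10 and 100 most abundant genes held 11.2% and 27.5%, and with mitochondrially encoded genes left out 11.7% and 29.6%. The median share of the leading transcript ranged from 69.4 to 69.7% with 1 mouse left out; it was 70.0% at a minimum of 1 TPM, 68.3% at 20 TPM, 81.4% by counts and 80.7% with protein_coding transcripts only. At 20 TPM, 4942 genes kept 1 leader in all libraries. The median coefficient of variation (10.2%) was 7.57 to 9.32% with 1 mouse left out, 8.97% and 8.96% with TMM and RLE scaling, 8.40% at a minimum of 5 TPM and 28.2% without a minimum. Genes with a 2-fold range numbered 561 to 667 with 1 mouse left out, 322 at 5 TPM and 13565 without a minimum. With TMM scaling there were 972, of which 883 were shared. The biological coefficient of variation was 16.3% without a filter and 10.4 to 14.2% with 1 mouse left out. Cell type lists with a 2-fold range numbered 3 to 5 with 1 mouse left out. Fewer samples or genes enter these alternatives; otherwise the cause was not tested.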

Other observations

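Some genes outside the marker lists had ranges of 2-fold or more, and were named after their values were seen. Ackr4, a scavenging chemokine receptor, was at 7.15, 25.6 and 6.15 TPM, and Rab15, a vesicle trafficking GTPase, at 9.80, 33.9 and 8.39 TPM, both highest in mouse 6. Slpi, a secreted protease inhibitor, was lowest in that mouse, at 174, 80.7 and 246 TPM.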
